A study of Homo sapiens with 12 samples.

Results

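The clustered protocadherins are cell adhesion receptors encoded at 3 neighbouring gene clusters, alpha, beta and gamma, on the long arm of human chromosome 5. Their RNA level was examined in the melanoma cell line A375, with 3 sequencing libraries in each of 4 groups. The groups were OGDH-depleted cells starved of glucose for 5 h, OGDH-depleted cells with glucose, control cells starved of glucose for 5 h, and control cells with glucose. OGDH is an enzyme of the tricarboxylic acid cycle that consumes 2-oxoglutarate. Its loss is called KO in the titles and knockdown in the text of the series, so "OGDH-depleted" is used here, and whether the cells are 1 clone is not given in the sources used here. Members were taken by symbol (PCDHA, PCDHAC, PCDHB, PCDHGA, PCDHGB or PCDHGC followed by a number), which gave 53 of the 61209 gene names in the table: 15 alpha, 16 beta and 22 gamma genes. The pseudogene PCDHA14 also carries such a symbol and was left out. The family was proposed with results from these counts in view and may thus have been selected on the fold changes given below, so its counts of calls and its p-values describe these libraries and support nothing further.

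Protocadherins of this family are single-pass membrane proteins with extracellular cadherin repeats that bind the same isoform on a facing cell. In the nervous system, a neuron uses a small set of isoforms as a surface label, which lets its own branches recognise and avoid each other. Each alpha and gamma gene joins its own large first exon, with its own promoter, to 3 exons that the whole cluster shares. By contrast, each beta gene is a single coding exon. The C-type genes at the 3′ end of the alpha and gamma clusters (PCDHAC1, PCDHAC2, PCDHGC3, PCDHGC4 and PCDHGC5) are known to be used more constitutively in neurons than the others. Many promoters of the family hold a conserved sequence element with a CGCT core, and CTCF and cohesin fold the locus so that distant enhancers reach the promoters.

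In hg38 the 3 clusters occupied chr5:140786136-141512977 on the plus strand, a stretch of 726.8 kb. The alpha genes spanned 226.2 kb, the beta genes 198.0 kb (chr5:141051374-141249365) and the gamma genes 182.5 kb (chr5:141330514-141512977). The 3 shared exons were 59, 89 and 2721 bases long in the alpha cluster and 59, 89 and 2029 bases long in the gamma cluster. These exons are listed under 15 alpha and 22 gamma names, so a fragment that lies wholly within them overlaps several names and the counts come mainly from each gene's own first exon. The first shared exon is shown because it is the part of the transcript that does not tell members apart. Capitals mark the 39 of 59 bases (66.1%) that are the same in the alpha and gamma exons when set side by side without gaps, in the GENCODE transcripts.
alpha shared exon, chr5:140978949-140979007: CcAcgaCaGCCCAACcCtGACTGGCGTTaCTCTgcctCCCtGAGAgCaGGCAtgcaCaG
gamma shared exon, chr5:141494807-141494865: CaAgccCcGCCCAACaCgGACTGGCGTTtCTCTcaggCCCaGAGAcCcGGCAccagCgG
The second shared exon, of 89 bases, had 29 identical bases (32.6%).

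Promoter windows of 250 bases before to 50 bases after the transcription start were found for 47 of the 53 members in RefSeq (GRCh38.p14). PCDHA3, PCDHA13, PCDHB6, PCDHB11, PCDHGA12 and PCDHGC5 had none. The 30-base stretches below surround the CGCT core, in capitals, in 3 genes of each cluster taken as examples, plus PCDHB7. PCDHB7 fell furthest in starved control cells. Some of the fitted log2 fold changes there lay close together, as -1.48 for PCDHGA5 (SE 0.35) and -1.61 for PCDHGA6 (SE 0.28).
PCDHA2, chr5:140794783-140794812: tagccacatgatgtCGCTgtccaccataga
PCDHA6, chr5:140827899-140827928: gagccgcatgatgtCGCTgtctaccatgaa
PCDHA12, chr5:140875246-140875275: cagtcacatgatgtCGCTctacactcagaa
PCDHB5, chr5:141135181-141135210: aggacgcctggtggCGCTgcaggctaagag
PCDHB7, chr5:141172568-141172597: aaaacgcaaggtggCGCTgctggctaaaaa
PCDHB8, chr5:141177779-141177808: aggacccgtggtggCGCTgcaggataagaa
PCDHB15, chr5:141245316-141245345: acaacgcatggtggCGCTgcaggctaaggc
PCDHGA5, chr5:141364109-141364138: aggactctgagtgtCGCTgttgaccaaagt
PCDHGA6, chr5:141373837-141373866: aggactctaagcgtCGCTgttgaccaacct
PCDHGA10, chr5:141412933-141412962: aggactctgagcgcCGCTgttcacctacta
All lie on the plus strand.

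The commonest letters around the core differed between clusters. In each cluster the 9-letter word around CGCT that the most windows held was taken, and then searched on both strands of all windows. The count of a word in its own cluster follows in part from that choice. An exact match also passes over letters shared across clusters: ggtgt stands before CGCT in both PCDHA11 (alpha) and PCDHGA4 (gamma). For alpha this was GATGTCGCT, found in 9 of 13 alpha windows, in 0 of 14 beta and 0 of 20 gamma windows, and in 0.103% of the 27305 windows of all genes. For beta it was GGTGGCGCT, found in 13 of 14 beta windows, in none of the alpha or gamma windows, and in 0.524% of all windows. For gamma it was GCGCCGCTG, found in 10 of 20 gamma windows, in none of the alpha or beta windows, and in 1.25% of all windows. CGCT alone, which is part of the 3 words, was in 46 of the 47 windows but also in 69.4% of all windows. The core of the cluster's word lay 38 to 81 bases before the start in the alpha genes (median 48.0, n = 9) and 40 to 95 bases before it in the gamma genes (median 64.0, n = 10). In the beta genes it lay between 79 bases before and 3 bases after the start (median 61.0 before, n = 13). Of the genes shown, PCDHA12 and PCDHB15 hold the word of their cluster, as PCDHA2 and PCDHB7 do, and PCDHGA5 and PCDHGA6 lack the gamma word. PCDHGA10 holds the gamma word (log2 fold change -0.60 in starved control cells), as do PCDHGA1 (-1.63) and PCDHGA9 (-1.71), which are not shown. Whether a word goes with the starvation change was not tested. A match describes these letters only.

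OGDH was at 32.3 to 33.9 CPM (counts scaled to a TMM-adjusted library of 1000000) in starved OGDH-depleted cells, while OGDH-depleted cells with glucose had 36.3 to 45.1 CPM. Starved control cells had 129 to 133 CPM and control cells with glucose 142 to 166 CPM. Libraries held 21556273 to 25546615 counted fragments, of which 1250 to 4779 fell on the 53 members. In all, 3 libraries stood apart from the others of their group: replicate 3 of the starved OGDH-depleted cells, replicate 3 of the starved control cells and replicate 2 of the control cells with glucose. Mitochondrial transcripts took 3.06% to 14.6% of counts, and those 3 libraries stood apart in this share too. It was 9.71% in that of the starved OGDH-depleted cells, against 3.06% and 5.12% in the other replicates. The starved control library had 4.11%, against 14.4% and 13.2%. The control library with glucose had 14.6%, against 4.97% and 6.35%. OGDH-depleted cells with glucose had 5.16% to 6.98%. Of 13 melanoma markers, SOX10 (299 to 670 CPM), AXL, MITF, ERBB3, EGFR and NGFR were present. The pigment genes TYR, PMEL and MLANA were at or below 1.56 CPM, DCT at or below 0.662 CPM and TYRP1 at or below 2.79 CPM. S100B did not exceed 1.82 CPM and S100A1 did not exceed 2.93 CPM. The 8 neuronal markers summed to 55.1 to 74.5 CPM in starved OGDH-depleted cells, 46.8 to 49.1 CPM in the OGDH-depleted cells with glucose, 53.2 to 63.5 CPM in starved control cells and 46.3 to 55.6 CPM in control cells with glucose. SYT1 (13.2 to 39.9 CPM), GAP43 (9.93 to 24.1 CPM) and TUBB3 (5.47 to 12.4 CPM) carried this sum, whereas STMN2 did not exceed 0.0433 CPM and RBFOX3 did not exceed 0.715 CPM. Their part in the results was not tested. The epithelial keratin list, carried by KRT18, summed to 416 to 445 CPM in starved OGDH-depleted cells, 361 to 379 CPM in the OGDH-depleted cells with glucose, 807 to 894 CPM in starved control cells and 354 to 400 CPM in control cells with glucose. It was thus high in the same 3 libraries in which the protocadherins were low, with EPCAM at or below 0.26 CPM, and its part in the results was not tested.

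The family's RNA was spread unevenly over its members. Of the 53 genes, 44 passed the filter on low counts: 14 alpha, 15 beta and 15 gamma. Per kilobase of exon that no other gene name covers, PCDHGC3, a C-type gamma gene, was highest at 10.2 CPM, followed by PCDHB6 at 8.16, PCDHB5 at 4.32, PCDHB8 at 2.91 and PCDHA6 at 2.08 (means of 12 libraries). By the table's whole exon length the order of the first pair turned round, with PCDHB6 at 8.01 and PCDHGC3 at 6.11 CPM per kilobase. The untested genes were PCDHA1, PCDHB1, PCDHGA3, PCDHGA8, PCDHGB5, PCDHGB6, PCDHGA11, PCDHGC4 and PCDHGC5, none with more than 11 counts in a library. PCDHA1, of whose 5595 exon bases only 7 belong to no other name, had 1 count in all 12 libraries, so its level is not known from this table. The 9 untested genes together had 31 to 39 counts in starved OGDH-depleted cells, 33 to 55 in OGDH-depleted cells with glucose, 14 to 25 in starved control cells and 37 to 41 in control cells with glucose.

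In control cells starved of glucose, each of the 3 clusters was at 37.4% to 46.7% of its level in control cells with glucose, and in starved OGDH-depleted cells at 90.4% to 109% of its level in OGDH-depleted cells with glucose. Summed over the 53 genes, the level was 181, 188 and 194 CPM in starved OGDH-depleted cells. It was 191, 199 and 178 CPM in the OGDH-depleted cells with glucose. The starved control cells were at 70.1, 79.4 and 74.3 CPM and the control cells with glucose at 176, 186 and 181 CPM. The 3 starved control libraries lay far below the other 9, which overlapped one another. The mean of the starved control cells was 41.2% of that of control cells with glucose, whereas the mean of starved OGDH-depleted cells was 99.1% of that of OGDH-depleted cells with glucose. In bulk RNA, fewer cells that express a gene and less of its RNA per cell cannot be told apart.

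The alpha cluster summed to 40.8 ± 3.47 CPM in starved OGDH-depleted cells, 45.1 ± 1.60 CPM in the OGDH-depleted cells with glucose, 17.8 ± 1.85 CPM in starved control cells and 43.7 ± 3.75 CPM in control cells with glucose (mean ± SD, n = 3). The beta cluster had 88.7 ± 13.4 CPM in starved OGDH-depleted cells, 81.5 ± 5.98 CPM in the OGDH-depleted cells with glucose, 29.5 ± 5.66 CPM in starved control cells and 79.0 ± 13.9 CPM in control cells with glucose. The gamma cluster had 58.3 ± 4.51 CPM in starved OGDH-depleted cells, 62.8 ± 3.52 CPM in the OGDH-depleted cells with glucose, 27.2 ± 3.47 CPM in starved control cells and 58.3 ± 5.54 CPM in control cells with glucose. Starved control cells thus held 40.8% of the alpha, 37.4% of the beta and 46.7% of the gamma level of control cells with glucose, a difference between clusters that was not tested. Without PCDHGC3 and PCDHB6, the remaining 51 genes summed to 116 ± 2.87 CPM in starved OGDH-depleted cells, 120 ± 6.12 CPM in the OGDH-depleted cells with glucose, 44.0 ± 2.20 CPM in starved control cells and 116 ± 4.14 CPM in control cells with glucose.

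**Figure D1:**
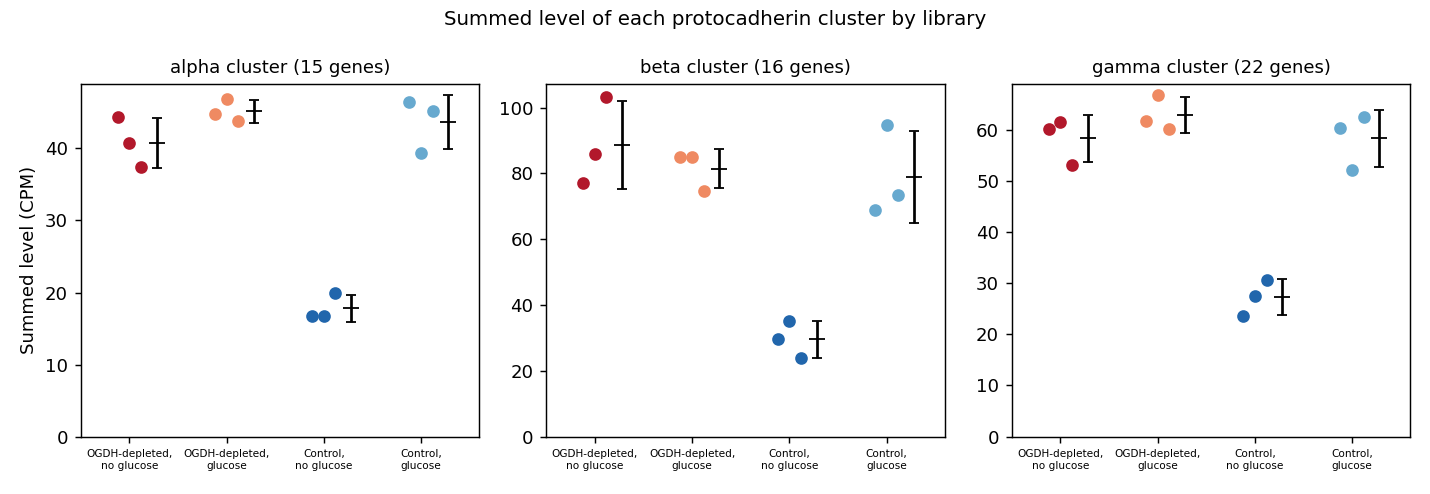
Summed level in CPM (y axis, from 0) of the alpha, beta and gamma clusters in each library, by group (x axis); each point is 1 library and the bars beside the points give mean ± SD of 3. The starved control libraries lie below the other 9 in each panel, at 16.7 to 19.9 CPM for alpha, 23.8 to 35.1 CPM for beta and 23.6 to 30.5 CPM for gamma.

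The split of the family between clusters moved with the libraries that stood apart. The beta cluster made up 53.3% of the family's counts in replicate 3 of the starved OGDH-depleted cells and 42.4% and 45.7% in the other 2. It made up 32.0% in replicate 3 of the starved control cells, against 42.4% and 44.2% in the other 2, and 50.9% in replicate 2 of the control cells with glucose, against 39.2% and 40.5%. The 3 libraries of OGDH-depleted cells with glucose were at 41.8% to 44.4%. The beta share thus set those 3 libraries apart from the others of their group, and the group ranges of the alpha and of the beta share overlapped for every pair of groups. The gamma share was 27.4% to 33.1% in starved OGDH-depleted cells and 33.7% to 41.1% in starved control cells, which did not overlap, a difference that was not tested. Median GC content of the tested genes was 48% for alpha, 47.8% for beta and 55.1% for gamma, and its part in this split was not tested.

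Starvation of control cells lowered members of every cluster. By edgeR's quasi-likelihood test over all genes, 34 of the 44 tested members fell at an adjusted p under 0.05 and 0 rose, where 17.5% of the 18526 tested genes fell and 17% rose. The 34 were 11 of 14 alpha, 11 of 15 beta and 12 of 15 gamma genes. The fitted log2 fold change was below 0 for all 44, with a median of -1.42 for alpha, -1.11 for beta and -1.18 for gamma, against -0.02 for all tested genes. For 36 members every starved library lay below every control library with glucose, which held for 20.8% of all tested genes, and for 0 members every starved library lay above, which held for 19.4%. The filter used all 4 groups, so a member low in starved control cells alone could pass it through the others. In a fit of the compared groups alone, 25 of 38 tested members were called (65.8%). Since the members that passed the filter are not all members and the family was chosen with results known, nothing is read from these counts.

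The furthest fall was that of PCDHB7, a beta isoform. It was at 1.18, 0.699 and 0.547 CPM in starved control cells and 4.88, 4.84 and 4.52 CPM in control cells with glucose, a log2 fold change of -2.58 (SE 0.21, edgeR adjusted p = 4.42e-06). In counts, the starved control libraries had 21, 13 and 13 fragments and the control libraries with glucose 123, 112 and 108. The groups did not come near each other. PCDHA2, an alpha isoform near the 5′ end of the locus, was at 0.505, 0.752 and 0.715 CPM in starved control cells and 4.20, 2.94 and 3.77 CPM in control cells with glucose (log2 fold change -2.45, SE 0.25, edgeR adjusted p = 1.92e-05). The fall of PCDHGB3, a B-type gamma isoform, rests on few fragments: 3, 2 and 1 in starved control cells and 18, 9 and 15 in control cells with glucose (log2 fold change -2.47, SE 0.50, edgeR adjusted p = 0.00264).

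PCDHB5 and PCDHB8, both among the beta genes with the highest CPM, fell nearly as far. PCDHB5 was at 3.37, 4.94 and 2.90 CPM in starved control cells and 14.03, 19.2 and 17.8 CPM in control cells with glucose (log2 fold change -2.19, SE 0.21). PCDHB8 was at 2.30, 2.04 and 1.77 CPM in starved control cells and 7.45, 10.04 and 8.58 CPM in control cells with glucose (log2 fold change -2.10, SE 0.21). PCDHB6, the beta gene with the highest CPM, fell less: 11.8, 15.7 and 10.2 CPM in starved control cells against 22.001, 33.0 and 22.2 CPM in control cells with glucose (log2 fold change -1.04, SE 0.21, edgeR adjusted p = 0.00303). None of these 3 genes had a starved library within the range of the control libraries with glucose.

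Among the alpha genes with the highest CPM, not divided by length, PCDHA6 was at 1.12, 1.83 and 2.10 CPM in starved control cells and 5.95, 5.71 and 5.82 CPM in control cells with glucose (log2 fold change -1.77, SE 0.18, edgeR adjusted p = 2.19e-05). PCDHA11 was at 2.13, 1.88 and 2.52 CPM in starved control cells and 5.87, 3.85 and 6.11 CPM in control cells with glucose (log2 fold change -1.27, SE 0.21). PCDHA5 was at 2.75, 2.53 and 1.51 CPM in starved control cells and 3.69, 3.94 and 3.47 CPM in control cells with glucose (log2 fold change -0.72, SE 0.20, edgeR adjusted p = 0.0151). The 3 alpha isoforms thus kept their groups apart while differing in the size of the fall. Of the gamma genes with the next highest CPM after PCDHGC3, the A-type isoform PCDHGA1 was at 1.12, 1.34 and 1.05 CPM in starved control cells and 3.41, 4.20 and 3.26 CPM in control cells with glucose (log2 fold change -1.63, SE 0.19). PCDHGA10, also A-type, was at 1.57, 1.67 and 1.89 CPM in starved control cells and 2.97, 2.55 and 2.30 CPM in control cells with glucose (log2 fold change -0.60, SE 0.19, edgeR adjusted p = 0.0285). Its call was lost without starved control replicate 1 or 2 or control replicate 1 with glucose (edgeR adjusted p = 0.0804 to 0.105), and that of PCDHA5 in a fit of the compared groups alone (edgeR adjusted p = 0.0683).

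The tested C-type genes fell as well. PCDHGC3 was at 15.2, 17.1 and 21.7 CPM in starved control cells and 40.7, 32.2 and 43.7 CPM in control cells with glucose (log2 fold change -1.11, SE 0.16, edgeR adjusted p = 0.000282). PCDHAC2 was at 2.30, 2.47 and 2.06 CPM in starved control cells and 5.23, 4.54 and 4.48 CPM in control cells with glucose (log2 fold change -1.06, SE 0.20). PCDHAC1 fell by 0.69 on the log2 scale (SE 0.21, edgeR adjusted p = 0.023), a call that was lost without starved control replicate 1 or 2 or control replicate 1 or 3 with glucose (edgeR adjusted p = 0.0543 to 0.0901). PCDHGC4 and PCDHGC5 had 2 to 10 counts in a library and were not tested. Their mean levels were 0.240 and 0.267 CPM in starved control cells and 0.252 and 0.266 CPM in control cells with glucose.

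The 10 tested members that were not called were PCDHA8, PCDHA12, PCDHA13, PCDHB4, PCDHB10, PCDHB11, PCDHB15, PCDHGA2, PCDHGB4 and PCDHGA12, named here after their values were seen. PCDHA12 and PCDHA13, the last 2 alpha isoforms before the C-type genes, had log2 fold changes of -0.46 (SE 0.32) and -0.14 (SE 0.37), and PCDHB15, the last beta gene, of -0.33 (SE 0.21). PCDHA12 was at 1.18, 1.13 and 2.27 CPM in starved control cells and 2.66, 1.43 and 2.30 CPM in control cells with glucose, so that the groups overlapped. Its log2 fold change was -1.11 without the 3 libraries that stood apart (edgeR adjusted p = 0.00153) and -0.89 without starved control replicate 3 alone (edgeR adjusted p = 0.0494). Just inside the threshold lay PCDHGB2 (adjusted p = 0.0419) and PCDHB2 (adjusted p = 0.0398), and just outside it PCDHB11 (adjusted p = 0.0551) and PCDHB10 (adjusted p = 0.0626). PCDHB10 and PCDHB11 were called by DESeq2.

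Along the alpha cluster the fall tended to be smaller toward the 3′ end, but unevenly. PCDHA5 (-0.72) and PCDHA8 (-0.89, not called) lay among larger falls. The last genes, PCDHAC1 (-0.69) and PCDHAC2 (-1.06), had larger falls than PCDHA13 (-0.14, not called) before them. Spearman's rho between gene order and log2 fold change was 0.714 over the 14 tested alpha genes, 0.0107 over 15 beta genes and 0.107 over 15 gamma genes. The rho values are descriptions across genes that share libraries and, in the alpha and gamma clusters, exons. They were not recomputed without the 3 libraries that stood apart, a fit in which PCDHA12 was at -1.11. In the beta cluster larger and smaller falls lay side by side. PCDHB5, PCDHB7, PCDHB8 and PCDHB16 lay between -2.58 and -1.87, and PCDHB13, near the 3′ end, was at -1.86, whereas PCDHB6 (-1.04), PCDHB9 (-1.11) and PCDHB10 (-1.05, not called), which lie among them, had smaller values, as had PCDHB2 (-0.63) and PCDHB15 (-0.33, not called) at the ends.

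**Figure D2:**
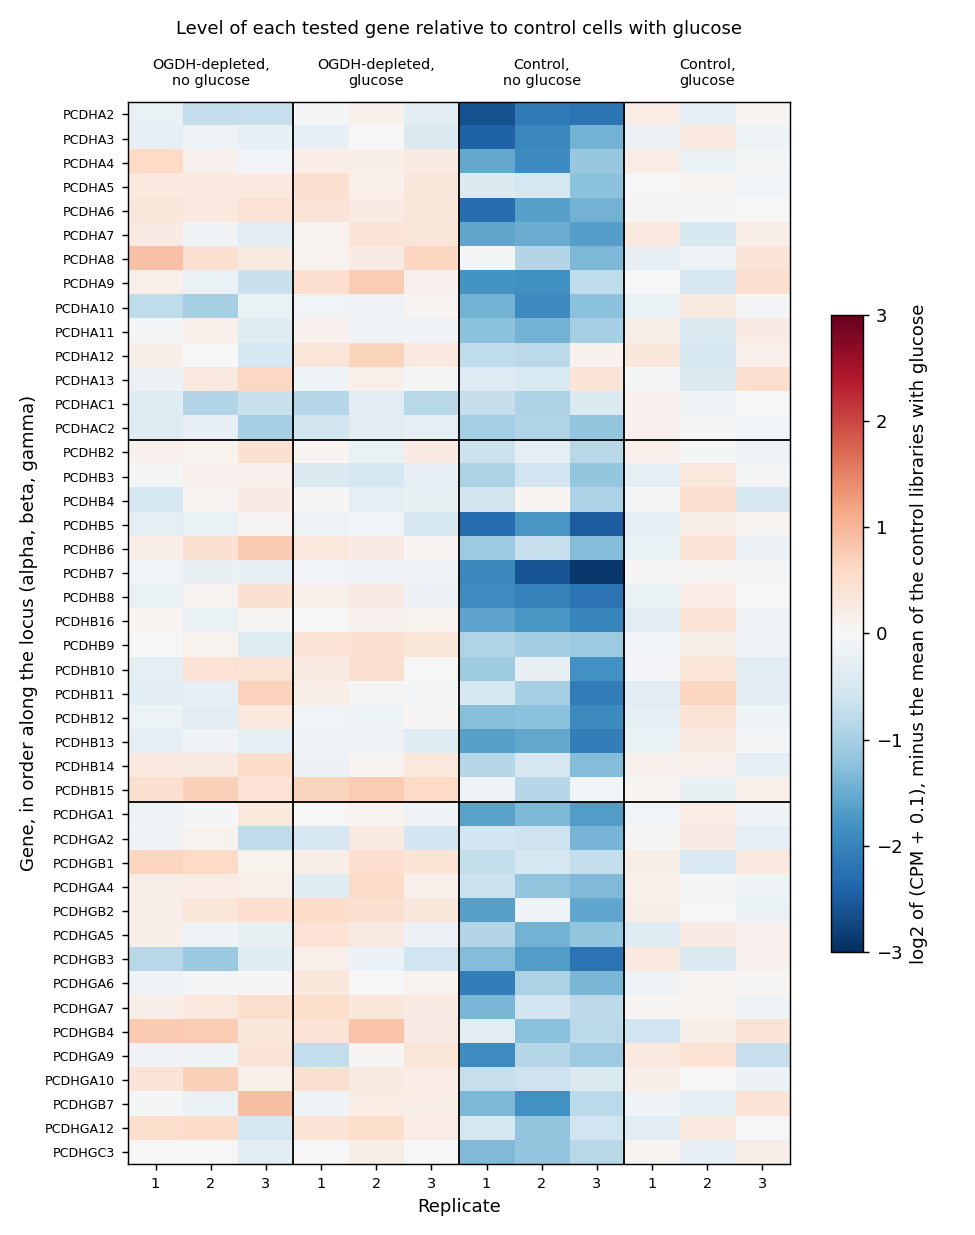
Level of each of the 44 tested members (rows, in order along the locus) in each of the 12 libraries (columns, by group and replicate), as log2 of CPM + 0.1 minus the mean of the 3 control libraries with glucose; blue is lower, red is higher and black lines part groups and clusters. The 3 starved control columns are blue in most rows, and PCDHA12, PCDHA13 and PCDHB15 are among the palest rows there.

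In OGDH-depleted cells no member was called for starvation. By edgeR, 0 of 44 members passed in either direction, where 7.18% of all tested genes did (2.42% higher, 4.76% lower). An unadjusted p under 0.05 was reached by 4 members (PCDHA2, PCDHA10, PCDHB3 and PCDHB9), and DESeq2 called 0. The groups did not overlap for 4 members that were lower and 1 that was higher, as held for 19.1% and 20.6% of all tested genes. The median log2 fold change of the 44 was 0.01, with 21 members below 0 and 23 above it, and all lay between -0.72 and 0.49. A p that misses the threshold does not show that levels were equal.

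PCDHB7 was at 4.46, 4.08 and 3.97 CPM in starved OGDH-depleted cells and 4.48, 4.42 and 4.41 CPM in the OGDH-depleted cells with glucose (log2 fold change -0.09, SE 0.18). PCDHGC3 was at 38.3, 38.2 and 30.4 CPM in starved OGDH-depleted cells and 38.4, 43.3 and 38.7 CPM in the OGDH-depleted cells with glucose (log2 fold change -0.17, SE 0.16). PCDHA6 was at 7.37, 7.16 and 7.89 CPM in starved OGDH-depleted cells and 7.65, 6.98 and 7.36 CPM in the OGDH-depleted cells with glucose (log2 fold change 0.03, SE 0.16). The groups overlapped for PCDHA6 and PCDHB7, whereas for PCDHGC3 each starved library lay below each library with glucose, without reaching the threshold (edgeR adjusted p = 0.512). PCDHA10 had the lowest adjusted p of the alpha genes, with 1.20, 0.9996 and 1.82 CPM in starved OGDH-depleted cells and 2.002, 1.94 and 2.24 CPM in the OGDH-depleted cells with glucose (log2 fold change -0.63, SE 0.24, edgeR adjusted p = 0.153). It was called at -0.92 without the 3 libraries that stood apart (edgeR adjusted p = 0.0112).

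**Figure D3:**
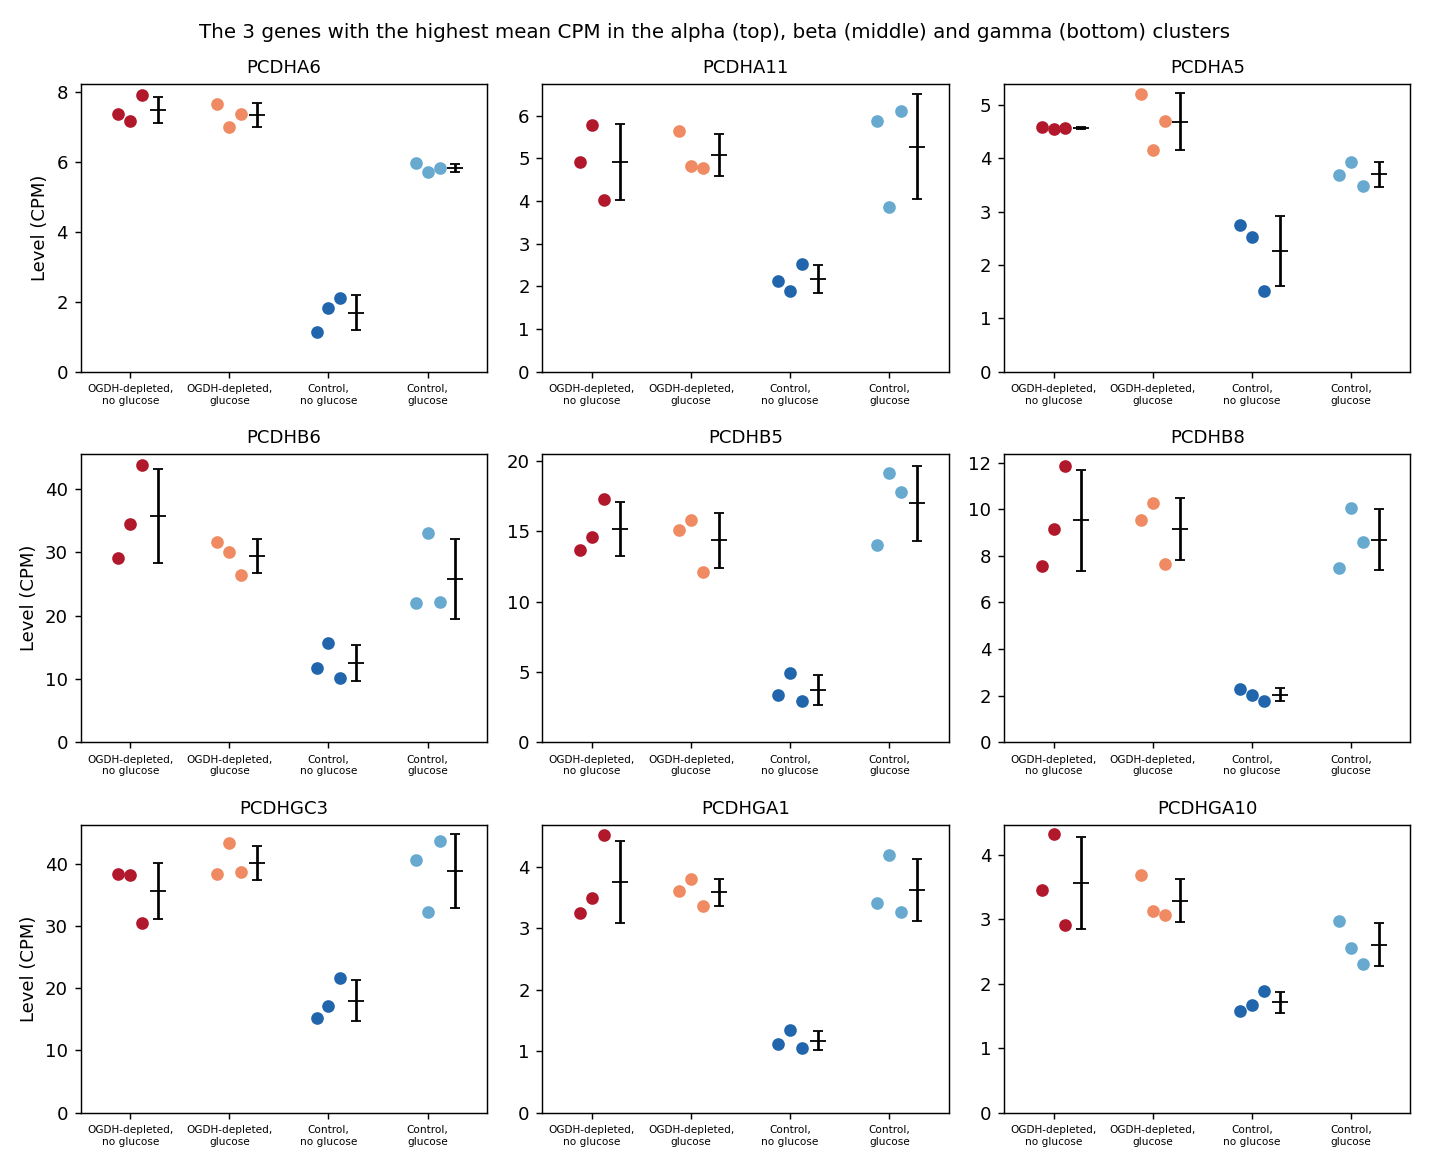
Level in CPM (y axes, from 0) of the 3 genes of each cluster with the highest mean CPM, not divided by length, in each library, by group; points are libraries and bars give mean ± SD of 3. In 9 of 9 panels each starved control library lies below each library of the other 3 groups; PCDHGC3 in starved control cells is at 15.2 to 21.7 CPM and in starved OGDH-depleted cells at 30.4 to 38.3 CPM.

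The difference between the 2 starvation responses, tested as the interaction in the same model, was called for 20 of 44 members, where 8.3% of all tested genes had a positive and 8.95% a negative interaction at that threshold. All 20 were positive, meaning that the starvation log2 fold change was higher in OGDH-depleted than in control cells, and they comprised 7 alpha, 9 beta and 4 gamma genes. The largest were PCDHB7 at 2.49 (SE 0.28, edgeR adjusted p = 0.000124), PCDHB5 at 2.27, PCDHB8 at 2.16, PCDHA2 at 1.98 and PCDHA3 at 1.94. Among the C-type genes, PCDHGC3 was called at 0.94 (SE 0.22, edgeR adjusted p = 0.0141) and PCDHAC2 at 0.93 (SE 0.27, edgeR adjusted p = 0.0361), while PCDHAC1 was not (0.74, SE 0.29, edgeR adjusted p = 0.115). The call of PCDHAC2 was lost without any 1 of 10 of the 12 libraries (edgeR adjusted p = 0.0516 to 0.0947); the exceptions were replicate 3 of the starved OGDH-depleted cells and replicate 2 of the control cells with glucose. It was also lost with no filter on low counts (edgeR adjusted p = 0.0603). Median interactions were 1.05 for alpha, 1.32 for beta and 1.21 for gamma, against 0.01 for all tested genes. PCDHA12 was the 1 member with a value below 0 (-0.09, SE 0.44).

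Comparing OGDH-depleted with control cells under starvation, 36 of 44 members were higher and 0 lower by edgeR, where 13.7% of all tested genes were higher and 15% lower. This comparison shares the starved control libraries with that of starvation in control cells and the starved OGDH-depleted libraries with that of starvation in OGDH-depleted cells, so the 3 are not independent. The 36 were 10 of 14 alpha, 13 of 15 beta and 13 of 15 gamma genes, with median log2 fold changes of 1.23, 1.32 and 1.41 over the tested members of the 3 clusters. For 37 members the groups did not overlap, with the starved OGDH-depleted libraries higher, as held for 19.1% of all tested genes, and for 0 members they were lower, as held for 19.6%. Members low in starved control cells alone could pass the filter through the other groups. With only the compared groups filtered and fitted, 29 of 39 tested members were called (74.4%). Nothing is read from these counts either.

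PCDHB7 was at 4.46, 4.08 and 3.97 CPM in starved OGDH-depleted cells and 1.18, 0.699 and 0.547 CPM in starved control cells (log2 fold change 2.39, SE 0.22). PCDHB8 was at 7.56, 9.16 and 11.9 CPM in starved OGDH-depleted cells and 2.30, 2.04 and 1.77 CPM in starved control cells (log2 fold change 2.23, SE 0.21). PCDHA6 was at 7.37, 7.16 and 7.89 CPM in starved OGDH-depleted cells and 1.12, 1.83 and 2.10 CPM in starved control cells (log2 fold change 2.13, SE 0.18, edgeR adjusted p = 7.83e-06). The starved OGDH-depleted libraries of each of these genes all lay above its starved control libraries. PCDHGB7, a B-type gamma isoform, rests on few fragments, with 11, 9 and 20 in starved OGDH-depleted cells and 2, 1 and 5 in starved control cells (log2 fold change 2.05, SE 0.52). PCDHB5 was at 13.7, 14.6 and 17.3 CPM in starved OGDH-depleted cells, against 3.37, 4.94 and 2.90 CPM in starved control cells (log2 fold change 2.03, SE 0.21). The 8 members not called here were PCDHA12, PCDHA13, PCDHAC1, PCDHAC2, PCDHB4, PCDHB11, PCDHGA2 and PCDHGB3. PCDHAC2 had a log2 fold change of 0.54 (SE 0.20, edgeR adjusted p = 0.0635), which was 0.76 without replicate 3 of the starved OGDH-depleted cells (edgeR adjusted p = 0.0062).

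With glucose present, no member was called for OGDH loss. By edgeR 0 of 44 members passed, where 3.04% of all tested genes did (1.59% higher, 1.45% lower), and the median log2 fold change of the 44 was 0.07. The 3 members with an unadjusted p under 0.05 were PCDHAC1, PCDHB9 and PCDHB15, and DESeq2 called 1, PCDHB15 (adjusted p = 0.0273). The groups did not overlap for 3 members that were lower and 7 that were higher, as held for 12.9% and 14.2% of all tested genes. PCDHB15 was at 3.603, 3.84 and 3.40 CPM in the OGDH-depleted cells with glucose and 2.34, 1.90 and 2.47 CPM in control cells with glucose (log2 fold change 0.69, SE 0.20, edgeR adjusted p = 0.101). Its level was also higher under starvation, at 3.14, 3.71 and 3.06 CPM in starved OGDH-depleted cells and 2.02, 1.18 and 2.10 CPM in starved control cells (log2 fold change 0.89, SE 0.21, edgeR adjusted p = 0.00743).

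PCDHAC1, a C-type alpha gene, was high in 1 group. It was at 2.83, 1.96 and 2.28 CPM in starved OGDH-depleted cells, 2.002, 2.87 and 2.02 CPM in the OGDH-depleted cells with glucose, and 2.19, 1.88 and 2.73 CPM in starved control cells. In control cells with glucose it was at 4.04, 3.37 and 3.64 CPM. The control libraries with glucose were therefore the high ones and the other 9 overlapped. Its log2 fold change for OGDH loss was -0.69 with glucose (SE 0.20, edgeR adjusted p = 0.109) and 0.05 without it (SE 0.21). Without the 3 libraries that stood apart, the value with glucose was -0.76 (edgeR adjusted p = 0.0375).

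**Figure D4:**
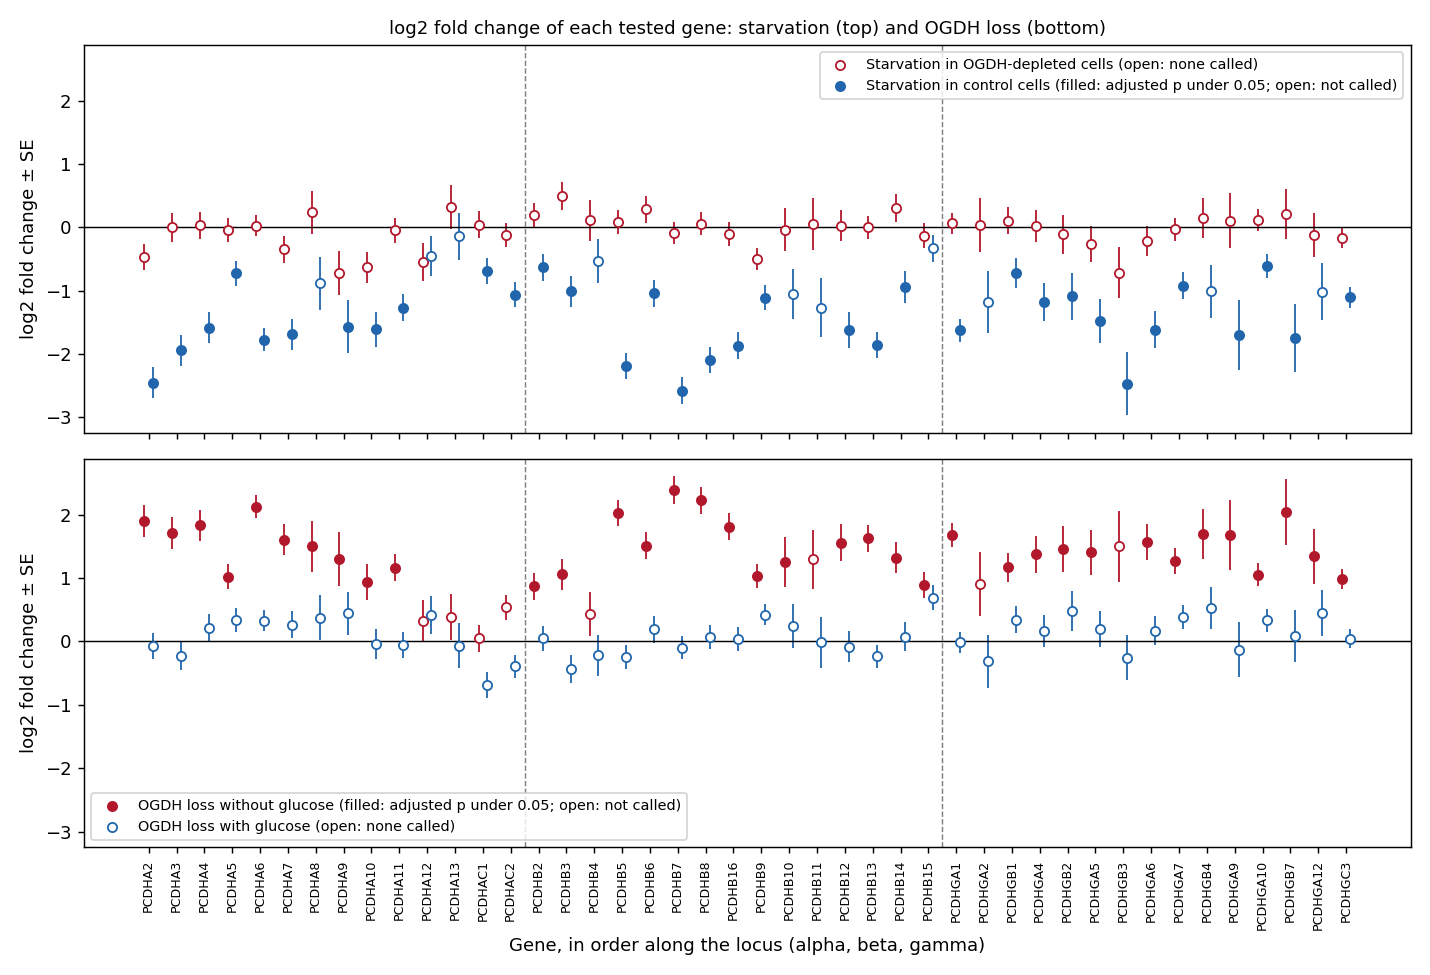
log2 fold change ± SE (y axes) of each of the 44 tested members, in order along the locus (x axis, dashed lines between clusters): starvation in OGDH-depleted and in control cells (top), OGDH loss without and with glucose (bottom); filled points passed an adjusted p of 0.05 in edgeR. Control starvation values run between -2.58 and -0.14 and those of OGDH-depleted cells between -0.72 and 0.49.

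Genes that regulate the locus were examined as a list of 29, all tested, which includes CTCF, the cohesin subunits and loader, DNA and histone methyltransferases and the TET enzymes. In starved control cells 3 rose and 6 fell by edgeR, with a median log2 fold change of 0.07, where 34.5% of all tested genes were called in either direction. TET3, which oxidises methylated cytosine using 2-oxoglutarate, was at 63.5, 58.8 and 59.6 CPM in starved OGDH-depleted cells, 85.3, 95.6 and 87.3 CPM in the OGDH-depleted cells with glucose, 138, 143 and 140 CPM in starved control cells and 74.4, 76.9 and 77.9 CPM in control cells with glucose. Its starvation log2 fold change was -0.56 in OGDH-depleted cells (SE 0.08, edgeR adjusted p = 0.00214) and 0.88 in control cells (SE 0.08, edgeR adjusted p = 9.43e-06), and the interaction was -1.44 (SE 0.11). TET1 fell by 1.60 on the log2 scale in starved control cells (SE 0.29) and its interaction was 1.83 (SE 0.40). REST, a repressor of neuronal genes, was lower in starved OGDH-depleted than in starved control cells, at -0.80 (SE 0.21, edgeR adjusted p = 0.0121). With glucose, TET1 and DNMT1, the maintenance DNA methyltransferase, were lower in OGDH-depleted cells, at -1.38 (SE 0.28) for TET1 and -0.31 (SE 0.08) for DNMT1. CTCF, the architectural factor of the locus, named here after its values were seen, had a log2 fold change of -0.07 (SE 0.14) in starved control cells and was not called. SMCHD1 and REST, which with TET3 make up the 3 that rose there, were at 0.87 (SE 0.18, edgeR adjusted p = 0.00301) and 0.66 (SE 0.20, edgeR adjusted p = 0.0268). UHRF1 was among the 6 that fell, at -1.34 (SE 0.26, edgeR adjusted p = 0.00194). These values were also picked after they were seen.

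Among other cadherin genes, of 16 tested non-clustered protocadherins and FAT, Dachsous and CELSR cadherins, 4 rose and 5 fell in starved control cells, against 17% and 17.5% of all tested genes, with a median log2 fold change of 0.03. CELSR2 fell by 1.92 (SE 0.20) and FAT3 rose by 1.45 (SE 0.15). PCDH9, a non-clustered protocadherin, was at 2.91, 4.12 and 4.61 CPM in starved OGDH-depleted cells and 16.3, 16.7 and 13.6 CPM in starved control cells (log2 fold change -2.00, SE 0.19), opposite in direction to the clustered genes. In starved OGDH-depleted cells CELSR3 fell by 0.96 (SE 0.18) and CELSR2 by 0.80 (SE 0.19), and with glucose OGDH depletion went with lower PCDH7 (-0.95, SE 0.15) and PCDH18 (-1.85, SE 0.37). Of the 9 tested classical cadherins and catenins, 3 rose and 1 fell in starved control cells, against the same 17% and 17.5% of all tested genes. CDH13 was at 0.50 (SE 0.08) and CTNND2 at 0.75 (SE 0.21). Against those same shares of all tested genes, 3 of the 22 tested signalling and processing partners rose there and 3 fell. CTNNB1 (-0.35, SE 0.12) is on this list and on that of the classical cadherins and catenins, and is counted as fallen in both. The partners called included MARCKS, an actin-binding substrate of protein kinase C, at -1.39 (SE 0.14), and the kinase FYN, at 0.80 (SE 0.09). MARCKS was 1.38 higher on the log2 scale in starved OGDH-depleted than in starved control cells (SE 0.14), and CYFIP2, a subunit of the WAVE complex that binds protocadherin tails, was 0.70 higher (SE 0.09). PTK2, the focal adhesion kinase, was the 1 of 22 tested partners called for OGDH loss with glucose, at -0.62 (SE 0.08), where 3.04% of all tested genes were called.

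Of 15 tested genes that flank or lie inside the locus, 2 rose and 2 fell in starved control cells, where 17% of all tested genes rose and 17.5% fell, and the median log2 fold change was -0.08. PCDH1, which is also on the list of non-clustered protocadherins, rose by 0.67 (SE 0.10) and TMCO6 fell by 0.64 (SE 0.15). CD14, a monocyte coreceptor gene, rose by 1.43 (SE 0.39). Its changes rest on few fragments, at 0.449, 1.02 and 0.884 CPM in starved control cells and 0.396, 0.216 and 0.251 CPM in control cells with glucose. ARAP3 fell by 0.39 (SE 0.10) in starved OGDH-depleted cells, and CD14 was lower in starved OGDH-depleted than in starved control cells (-1.72, SE 0.40). TAF7, a gene for a subunit of the general transcription factor TFIID between the beta and gamma clusters that was singled out after its values were seen, was at 194, 204 and 225 CPM in starved OGDH-depleted cells, 174, 175 and 172 CPM in the OGDH-depleted cells with glucose, 171, 190 and 153 CPM in starved control cells and 134, 166 and 137 CPM in control cells with glucose. Its log2 fold change in starved control cells was 0.23 (SE 0.11, edgeR adjusted p = 0.133). Of 5 clustered protocadherin pseudogenes, 1 was tested, PCDHB18P within the beta cluster. It was at 0.620, 0.916 and 1.23 CPM in starved OGDH-depleted cells, 0.721, 0.751 and 0.709 CPM in the OGDH-depleted cells with glucose, 0.224, 0.484 and 0.252 CPM in starved control cells and 0.753, 0.779 and 0.795 CPM in control cells with glucose. It fell by 1.28 in starved control cells (SE 0.34, edgeR adjusted p = 0.0122) and its interaction was 1.61 (SE 0.44, edgeR adjusted p = 0.0265).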

How the data were processed

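The table was deposited as raw counts of fragments per gene name, which the authors made with featureCounts 2.0.1, per the file headers. Pairs were counted over exons without strand, and fragments that overlap several names or map to several places were left out, so members lose fragments in shared exons and in sequence shared with near-identical members or antisense genes, and low members are uncertain. Per the submitters' processing notes, Subread was used with hg38. Which aligner was run is not given in the sources used here.

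Names were kept by filterByExpr over the 4 groups (minimum count 10, minimum total 15), which left 18526. A gene could thus pass through groups where it was high. Counts were scaled by TMM and tested with edgeR 4.0.16 (R 4.3.3) in 1 model of 4 group means, adjusted by Benjamini-Hochberg over all tested genes at 0.05. Named genes are the C-type members, the 3 members of each cluster with the highest mean CPM, the 5 largest changes called in either direction per comparison, the 2 smallest p of each other list, and OGDH. A gene that this rule takes is not reported here. Members and lists were chosen with earlier results of these data known. DESeq2 1.42.0, other scalings, filters, a GC offset and left-out libraries were alternatives. Separate cultures are not stated in the labels, so a p-value reflects the spread of these libraries alone, and that spread may be technical. Replicate pairs differed by more than sampling noise (chi-square per degree of freedom 3.73 to 152). The test was checked on simulated counts.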

Additional observations from a re-analysis of the deposited data

Results flagged for a closer look

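The starvation response differed between OGDH-depleted and control cells in 20 of 44 tested members by the edgeR interaction test. Of all tested genes, 8.3% had a positive and 8.95% a negative interaction at that threshold. The interaction is the starvation log2 fold change in OGDH-depleted cells minus that in control cells. In the alpha cluster it was 1.98 for PCDHA2, 1.94 for PCDHA3, 1.62 for PCDHA4, 1.80 for PCDHA6, 1.34 for PCDHA7, 1.22 for PCDHA11 and 0.935 for PCDHAC2. In the beta cluster it was 1.5 for PCDHB3, 2.27 for PCDHB5, 1.32 for PCDHB6, 2.49 for PCDHB7, 2.16 for PCDHB8, 1.76 for PCDHB16, 1.64 for PCDHB12, 1.86 for PCDHB13 and 1.25 for PCDHB14. In the gamma cluster it was 1.69 for PCDHGA1, 1.40 for PCDHGA6, 0.886 for PCDHGA7 and 0.937 for PCDHGC3. The edgeR adjusted p was lowest for PCDHB7, at 0.000124, and highest for PCDHGA7, at 0.0498. The family was chosen with results of these libraries known, so these calls are a description of them.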

How the results depend on the processing

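Direction held for the members called under every alternative tried. Those called for control starvation were lower, and those called for the interaction and for OGDH loss under starvation were higher. Calls numbered 25 to 36 for control starvation, 28 to 38 for OGDH loss and 17 to 24 for the interaction, among 33 to 53 members tested. Calls among all genes changed as well. Without the 3 libraries that stand apart, 31 of 45 members (68.9%) were called for control starvation, but so were 11364 of all tested genes, against 6400 as reported. Of the 34, 36 and 20 members called in these 3 comparisons, 23, 28 and 16 stayed called wherever an alternative tested them. Leaving out 1 library gave 29 to 32, 31 to 35 and 17 to 21 calls, and 0 for the other 2 comparisons. With 0 called as reported, starvation in OGDH-depleted cells had 1 lower member, PCDHA10, without the 3 libraries that stand apart, with the GC offset, and with the block and GC offset. OGDH loss with glucose had 1 higher by DESeq2 (PCDHB15) and 1 lower without those 3 libraries (PCDHAC1).

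Without those 3 libraries, the genes called of all tested numbered 3313 for starvation and 2021 for OGDH loss with glucose in the comparisons that called 0 members, and 11364, 9874 and 8077 for control starvation, OGDH loss without glucose and the interaction; with all 12 libraries they numbered 1330, 563, 6400, 5310 and 3196 in this order. The GC offset gave 2042 for starvation in OGDH-depleted cells (901 higher and 1141 lower, against 448 and 882 as reported), 1412 for OGDH loss with glucose and 5033 for the interaction, and with the block it gave 1236 and 4884 for the last 2. DESeq2 gave 2031 and 1172 for the first 2. Fitting the compared groups alone gave 215 and the block 342 for OGDH loss with glucose.

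Median log2 fold changes that moved beyond the spread were as follows. The spread was the SD, over the 3 libraries of 1 compared group, of the members' median difference from the mean of the other group. That group was the starved one for starvation and the OGDH-depleted one for OGDH loss. For the interaction, libraries were paired by replicate number, which did not pair the samples, so this spread is a rough yardstick. For starvation in control cells, alpha was at -1.58 with the stricter filter and -1.62 without the 3 libraries, and gamma at -1.05 with block and GC offset. For starvation in OGDH-depleted cells, gamma was at -0.11 with no filter, -0.12 without the 3 libraries, 0.20 with the GC offset and 0.19 with block and GC offset. For OGDH loss with glucose, alpha was at 0 with no filter, 0.15 with the GC offset and 0.15 with block and GC offset; beta at 0.15 without the 3 libraries, -0.0286 with the GC offset and -0.00765 with block and GC offset; gamma at 0.34 with the stricter filter, 0.0701 with the GC offset and 0.0647 with block and GC offset. For OGDH loss without glucose, gamma was at 1.35 with no filter, 1.26 with the stricter filter and 1.34 without the 3 libraries, and beta at 1.09 without them. For the interaction, gamma was at 0.92 with the stricter filter, and alpha at 1.34 and beta at 0.83 without the 3 libraries. The cause was not tested.

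Leaving out 1 library, the medians ranged as follows: starvation in control cells, alpha -1.52 to -1.21, beta -1.32 to -0.87 and gamma -1.35 to -1.20; starvation in OGDH-depleted cells, alpha -0.15 to 0.0157, beta -0.0452 to 0.17 and gamma -0.13 to 0.0200; OGDH loss with glucose, alpha 0.0833 to 0.23, beta -0.0753 to 0.16 and gamma 0.12 to 0.22; OGDH loss without glucose, alpha 1.09 to 1.41, beta 1.10 to 1.70 and gamma 1.36 to 1.46; interaction, alpha 0.98 to 1.24, beta 1.17 to 1.60 and gamma 1.03 to 1.42.

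Replicate numbers did not pair the samples: correlations of same-numbered libraries' deviations ran between -0.69 and 0.64. With the replicate number as a block, the calls numbered 32, 0, 0, 33 and 19 for the 5 comparisons. The block ended the interaction call of PCDHAC2 (0.91, edgeR adjusted p = 0.0529). Members with few counts per library rest on little depth, and no detection limit was computed for them.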
